A study of Mus musculus with 6 samples.

Results

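The subunits of respiratory complexes II, III, IV and V were described as 1 group of genes, taken from a table of gene expression in hearts of aged female mice. A row was a member where its symbol is Sdha, Sdhb, Sdhc, Sdhd or Cyc1, or starts with Uqcr, Cox4, Cox5, Cox6, Cox7, Cox8, Atp5, mt-Co, mt-Cytb or mt-Atp. By that rule 55 of 22298 rows were members, 49 of them nuclear genes on 18 chromosomes and 6 genes of the mitochondrial genome. Complex II had 4 members, complex III 9 nuclear and 1 mitochondrial, complex IV 18 nuclear and 3 mitochondrial, and complex V 18 nuclear and 2 mitochondrial. The 55 rows carry 54 symbols, because Atp5o has 2 identifiers.

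The hearts came from wild-type (WT) female mice aged 18 months. Of these, 3 samples were taken after sham surgery and 3 after TAC surgery, an abbreviation that in work on the heart stands for transverse aortic constriction, in which the aortic arch is tied narrower so that the left ventricle has to pump against a higher pressure. The sources used here name neither the strain, nor the part of the heart, nor how long after surgery it was taken. The labels number the hearts but do not say that each library came from a separate animal, so the spread behind each p-value is that between these 6 samples and may be technical.

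The respiratory chain sits in the inner mitochondrial membrane. Complex II (succinate dehydrogenase) passes electrons from the tricarboxylic acid cycle to ubiquinone, complex III passes them on to cytochrome c, and complex IV (cytochrome c oxidase) hands them to oxygen. Complexes III and IV pump protons, and complex V (ATP synthase) lets the protons back in and makes ATP, which the beating heart uses in large amounts. Complex II is built from nuclear gene products alone, whereas complexes III, IV and V each combine nuclear subunits with a few that are made inside the mitochondrion, where long transcripts of the circular genome are cut into the messenger RNAs of single genes.

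Each library held between 19747265 and 27549838 estimated counts. The 55 members took between 22.9% and 26.5% of them, and the 6 mitochondrial genes alone 20.7% to 23.7%. On the first principal component of all tested genes, which held 54.6% of the variance, the sham libraries lay between -31.4 and -37.3, TAC replicates 2 and 3 at 48.9 and 53.5, and TAC replicate 1 at 0.65. TAC replicate 1 thus stood apart from the other TAC libraries, and results are given with and without it. Without it, 13907 genes were tested in place of 13708. Summed markers of leukocytes moved the same way, at 508 to 590 CPM in sham, 650 CPM in TAC replicate 1 and 1092 and 1111 CPM in TAC replicates 2 and 3. CPM are counts scaled to a common library size, corrected with trimmed mean of M values (TMM) factors. All 16 cardiomyocyte markers, among them the sarcomere genes Tnnt2, Myh6 and Ttn, had counts in these libraries.

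In TAC hearts most nuclear subunit genes stood below the sham hearts in 2 of the 3 libraries, with a median log2 fold change of -0.24 over all 3 libraries. The mitochondrial genes mt-Cytb, mt-Co2, mt-Atp6 and mt-Atp8 stood above sham in all 3 TAC libraries, 4 of 6 (66.7%, against 18.4% of all tested genes), and mt-Co1 and mt-Co3 did not. These 4 genes are not independent of each other. They share the libraries and are cut from long shared transcripts, and mt-Atp8 and mt-Atp6 lie on the same messenger RNA. No subunit gene passed the test over the 6 libraries. Of the 55 members, 52 passed the filter on low counts. The remaining 3 were the testis-type subunit genes Cox7b2, with 4 counts over all libraries, and Cox8c, with 0, and a second identifier of Atp5o, also with 0. In edgeR's quasi-likelihood test none of the 52 passed an adjusted p of 0.05, against 1.66% of all 13708 tested genes (0.540% lower and 1.12% higher in TAC). At an unadjusted p under 0.05 there were 2 nuclear members, Cyc1 and Cox8a, and 4 mitochondrial ones, while 25.6% of all tested genes reached that level. The Wald test of DESeq2 called 0 nuclear members and 2 mitochondrial ones, mt-Atp8 and mt-Cytb, both higher, where it called 7.81% of all tested genes higher and 4.36% lower.

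The nuclear subunits lay slightly lower in TAC as a group. Among the 46 tested nuclear members, 42 had a negative log2 fold change (91.3%, against 47.1% of all tested genes). Their median was -0.24, with a range of -0.46 to 0.11, and the median of all tested genes was 0.03. The members share their libraries and are not independent of each other. In bulk tissue fewer cells of a type and less RNA per cell cannot be told apart. The difference lay in TAC replicates 2 and 3. Relative to the mean of the sham libraries, the median nuclear member stood at -0.01, 0.06 and -0.07 on the log2 scale in sham replicates 1, 2 and 3, at 0.04 in TAC replicate 1, and at -0.38 and -0.46 in TAC replicates 2 and 3.

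**Figure D1:**
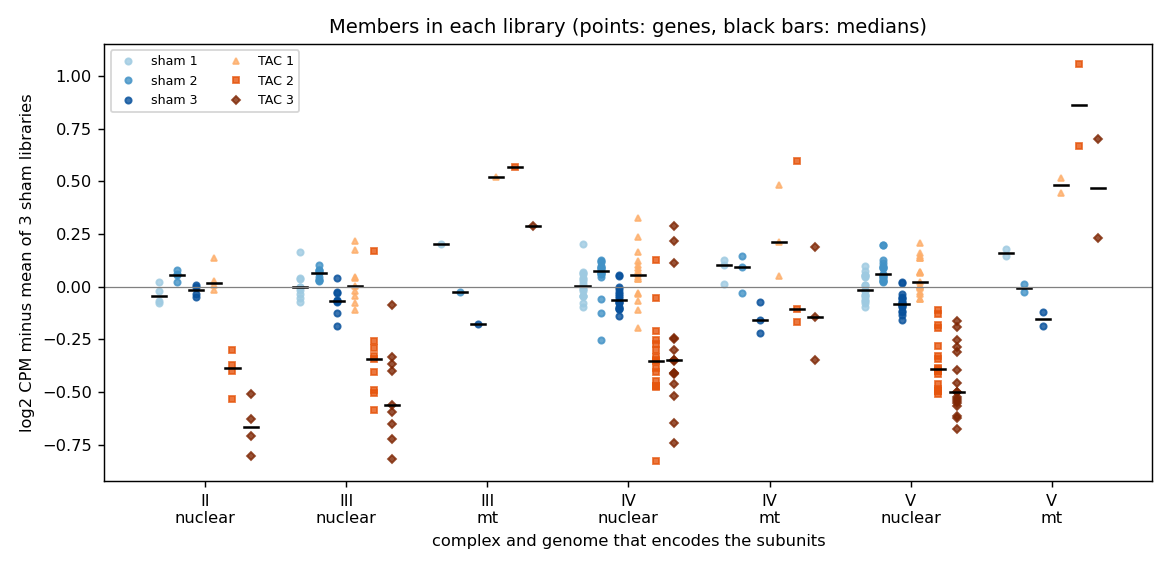
Level of each tested subunit gene in each library (vertical axis: log2 CPM minus the mean of the 3 sham libraries, genes grouped by complex and genome on the horizontal axis, black bars: medians). The nuclear medians of TAC replicate 1 lie at 0.01 to 0.05 relative to the sham mean in the 4 complexes, those of TAC replicates 2 and 3 lie below the sham libraries, and the mitochondrial genes of complexes III and V lie above sham in all 3 TAC libraries.

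Counted per gene, TAC replicate 1 lay inside the range of the sham libraries for 27 of the 46 nuclear members, above it for 15 and below it for 4. TAC replicate 2 lay below the lowest sham library for 42 members and TAC replicate 3 likewise for 42. Both did so for 40 (87.0%, against 26.1% of all tested genes), which were 4 of 4 in complex II, 8 of 9 in complex III, 12 of 16 in complex IV and 16 of 17 in complex V. Only 4 members (8.70%, against 13.1% of all tested genes) had all TAC values below all sham values, namely Cyc1, Uqcrc1, Cox8a and Atp5a1, and 0 had all TAC values above (18.4% of all tested genes). The lowest of the 6 libraries was TAC replicate 3 for 31 members and TAC replicate 2 for 13.

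With TAC replicate 1 left out, edgeR called 24 of the 46 nuclear members lower (52.2%, against 10% of all genes then tested) and 0 higher (13.2% of all), with a median of -0.42. These were Sdhb, Sdhc and Sdhd of complex II, Cyc1, Uqcr10, Uqcr11, Uqcrc1 and Uqcrfs1 of complex III, Cox4i1, Cox6b1, Cox7a1, Cox7a2, Cox7a2l, Cox8a and Cox8b of complex IV, and Atp5a1, Atp5b, Atp5c1, Atp5d, Atp5f1, Atp5g1, Atp5h, Atp5j2 and Atp5o of complex V. Leaving out any of the other 5 libraries gave 0 nuclear calls. The 24 calls thus rest on 2 TAC libraries against 3 sham libraries, and that TAC replicate 1 stood apart was seen in these same data. Across the 46 nuclear members, which share the libraries and their depth, Spearman's rho between length and log2 fold change was -0.45, against 0.05 across all tested genes. Length here is that implied by the counts and FPKM of a gene, not its span on the chromosome. By library, rho between length and the difference from the sham mean was -0.29, -0.21 and -0.61 in TAC replicates 1, 2 and 3. The 23 shorter members had a median log2 fold change of -0.24 and the 23 longer ones -0.30.

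**Figure D2:**
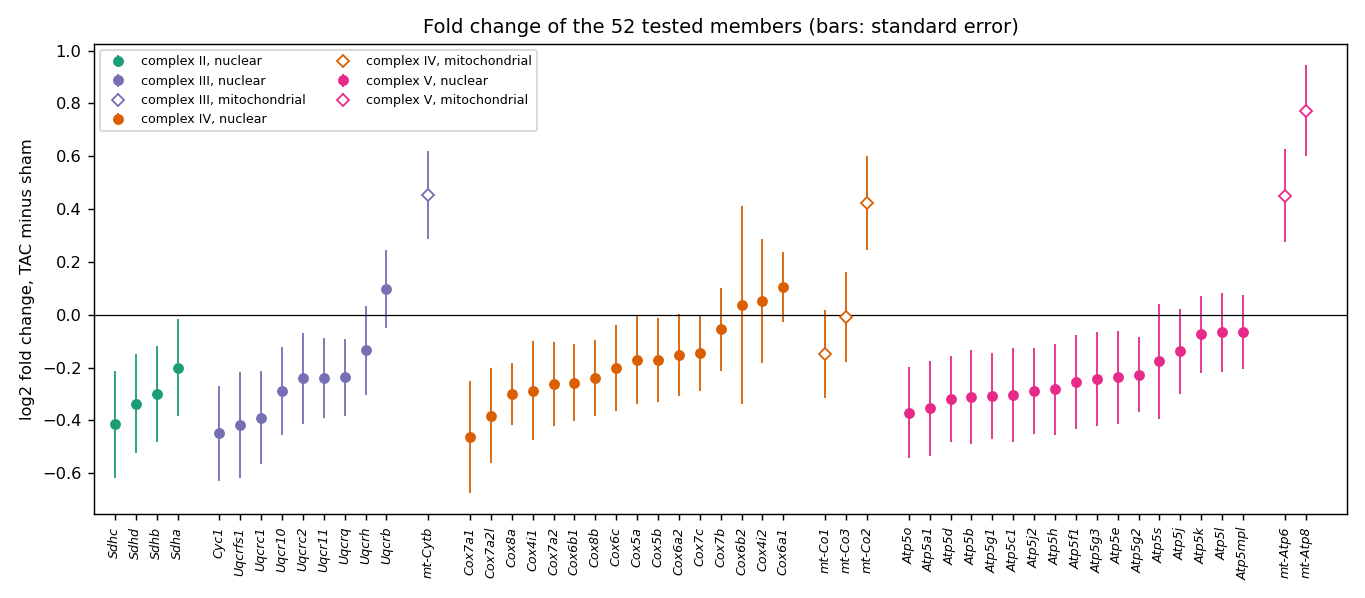
Log2 fold change of the 52 tested members, TAC minus sham (vertical axis), by complex and genome along the horizontal axis, with bars of 1 standard error from edgeR. Nuclear members run from -0.46 (Cox7a1) to 0.11 (Cox6a1), and 4 of the 6 mitochondrial members lie at 0.42 to 0.77.

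Promoter sequences are shown here as a description of the nuclear subunit genes, and a link between promoters and the values was not tested. Nuclear respiratory factor 1 (NRF1) and the ETS factor GABP (also called NRF2) are textbook regulators of these genes, as are the estrogen-related receptors (ERR) and YY1. RefSeq promoters (GRCm38.p6), the 250 bases before an annotated start, were matched to 33 of the 46 tested nuclear members by symbol and searched on both strands. The NRF1 letters GCGCANGCG were found in 8 of 33 members (24.2%) and in 5.86% of the 27025 genes with a promoter. Unlike the members, those 27025 genes were not limited to genes tested in these hearts, so the shares come from unlike sets. The ETS letters CCGGAAG were found in 9 members (27.3%, against 7.83% of all), the ERR letters TCAAGGTCA in 1 (3.03%, against 0.422%) and the YY1 letters AAGATGGC in 1 (3.03%, against 1.83%). Both NRF1 and ETS letters were present in Sdhd, Cox6a1, Atp5h and Atp5l. The 4 promoters printed were chosen after the values were seen. Capitals mark the motif letters on either strand. The first is that of the member with the highest nuclear fold change, Cox6a1 (chr5:115348959-115349208, minus strand), where a palindromic stretch holds NRF1 letters on both strands, 162 and 161 bases before the start, another NRF1 match lies at 117 bases and an ETS match at 16 bases.
Cox6a1: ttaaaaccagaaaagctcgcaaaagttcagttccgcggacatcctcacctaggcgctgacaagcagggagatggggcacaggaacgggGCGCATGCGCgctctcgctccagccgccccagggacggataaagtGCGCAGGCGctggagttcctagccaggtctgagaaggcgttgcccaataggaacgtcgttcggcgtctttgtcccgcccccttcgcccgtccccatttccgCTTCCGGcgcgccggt
Sdhd (chr9:50603850-50604099, minus strand), a membrane anchor of complex II, carries NRF1 letters 79 bases and ETS letters 46 bases before the start.
Sdhd: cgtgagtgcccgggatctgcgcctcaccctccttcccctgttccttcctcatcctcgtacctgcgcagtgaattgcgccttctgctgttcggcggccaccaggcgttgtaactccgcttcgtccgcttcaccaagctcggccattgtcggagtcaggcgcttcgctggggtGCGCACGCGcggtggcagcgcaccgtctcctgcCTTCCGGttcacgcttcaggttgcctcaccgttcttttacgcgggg
Atp5g3 (chr2:73911327-73911576, minus strand), the most abundant gene of the ATP synthase c subunit, is the 1 member with the ERR letters, 52 bases before the start.
Atp5g3: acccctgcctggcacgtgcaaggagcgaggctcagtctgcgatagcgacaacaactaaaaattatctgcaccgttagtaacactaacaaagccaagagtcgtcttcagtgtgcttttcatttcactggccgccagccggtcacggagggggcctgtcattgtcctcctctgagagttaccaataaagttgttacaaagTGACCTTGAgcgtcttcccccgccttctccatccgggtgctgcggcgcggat
Cox7a1 (chr7:30183921-30184170, plus strand), the member with the lowest fold change, holds none of the 4 motifs in this window.
Cox7a1: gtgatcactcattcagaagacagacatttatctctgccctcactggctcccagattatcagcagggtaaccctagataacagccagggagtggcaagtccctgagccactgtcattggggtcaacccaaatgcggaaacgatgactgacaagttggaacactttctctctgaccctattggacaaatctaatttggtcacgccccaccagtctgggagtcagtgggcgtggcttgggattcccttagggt
Members with and without the motifs had overlapping values. The 13 members with NRF1 or ETS letters had a median log2 fold change of -0.23 (range -0.34 to 0.11), and the 20 members with neither had -0.29 (range -0.46 to 0.04). A match of letters is a description and not a binding site.

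Complex II was the complex with the lowest nuclear median, -0.32, and all 4 of its members had negative values. Values of each gene are given in the order of replicates 1, 2 and 3. Sdhc (chr1:171127165-171150603), a membrane anchor that holds haem and the ubiquinone site, measured 407, 429 and 404 CPM in sham and 408, 285 and 237 CPM in TAC, a log2 fold change of -0.41 ± 0.20 (SE) at an adjusted p of 0.234. The other anchor, Sdhd, measured 388, 388 and 369 CPM in sham and 384, 289 and 233 CPM in TAC, a log2 fold change of -0.34 ± 0.19 (SE) at an adjusted p of 0.291. For both anchors TAC replicate 1 sat within the range of the sham libraries while TAC replicates 2 and 3 lay below all of them. Sdhb, the iron-sulfur subunit and the most abundant of the 4 per length (610.1 ± 34.7 FPKM in sham, where FPKM are fragments scaled by gene length and library total), measured 660.1, 735 and 695 CPM in sham and 710.1, 537 and 450.5 CPM in TAC, a log2 fold change of -0.30 ± 0.18 (SE) at an adjusted p of 0.333. Sdha, the flavin subunit that oxidises succinate, had the smallest difference of the 4, -0.20 (adjusted p = 0.52). In every complex II gene TAC replicate 3 was the lowest of the 6 libraries. Summed over the complex, the level was 2480.1, 2670.1 and 2548 CPM in sham and 2682, 1983.5 and 1675 CPM in TAC, so the highest and the lowest sums of the 6 libraries were both TAC libraries. Without TAC replicate 1, Sdhc fell by 0.68 (adjusted p = 0.0174), Sdhd by 0.56 (adjusted p = 0.032) and Sdhb by 0.51 (adjusted p = 0.0415) on the log2 scale in edgeR, and Sdha did not pass (-0.41, adjusted p = 0.065).

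In complex III, 8 of 9 nuclear members had negative values and the median was -0.24. Cyc1 (chr15:76343523-76346260), the haem protein that hands electrons to cytochrome c, measured 598, 625 and 593 CPM in sham and 561, 404 and 366 CPM in TAC, a log2 fold change of -0.45 ± 0.18 (SE) at an adjusted p of 0.167. Uqcrc1, a core protein, measured 1083, 1164 and 1169 CPM in sham and 1080.1, 803 and 725 CPM in TAC, a log2 fold change of -0.39 ± 0.18 (SE) at an adjusted p of 0.208. Neither gene overlapped between groups, though TAC replicate 1 lay close to the lowest sham library for both. Uqcrfs1, the Rieske iron-sulfur protein that moves electrons within the complex, stood at -0.42 (SE 0.20, adjusted p = 0.231). Uqcrq, the most abundant nuclear subunit of the complex per length (708 ± 31.0 FPKM in sham), measured 444, 467 and 421 CPM in sham and 437, 349.5 and 344 CPM in TAC, a log2 fold change of -0.24 ± 0.14 (SE) at an adjusted p of 0.333. Uqcrb, a small subunit next to the ubiquinone site, was the exception in sign at 0.10, with 217, 197 and 170.3 CPM in sham and 225, 219 and 183 CPM in TAC, groups that overlapped. The second core protein, Uqcrc2, stood at -0.24, and its estimated counts were fractional in all 6 libraries, which leaves its level less certain. Without TAC replicate 1, Cyc1 fell by 0.67 (adjusted p = 0.0137) and Uqcrc1 by 0.59 (adjusted p = 0.0217) in edgeR.

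In complex IV several nuclear subunits exist as isoform pairs, one typical of striated muscle and one of most other tissues. Its median was -0.19, and 13 of its 16 tested nuclear members had negative values. Per length the tested nuclear members ran from Cox6b2, a testis isoform at 2.13 ± 0.125 FPKM in sham, to Cox6a2, the muscle isoform at 1578 ± 91.5 FPKM. Cox7a1 (chr7:30184144-30186078), the muscle isoform of subunit 7a, measured 283, 317 and 277 CPM in sham and 286, 164 and 186 CPM in TAC, a log2 fold change of -0.46 ± 0.21 (SE) at an adjusted p of 0.213. That was the lowest value of all 52 members, with TAC replicate 2 at the bottom and TAC replicate 1 inside the sham range. Its general counterpart Cox7a2 measured 213, 221 and 195 CPM in sham and 214, 153 and 157 CPM in TAC, a log2 fold change of -0.26 ± 0.16 (SE) at an adjusted p of 0.333. Cox8a, the general isoform of subunit 8, measured 132, 121 and 126 CPM in sham and 110.2, 90.9 and 106 CPM in TAC, a log2 fold change of -0.30 ± 0.12 (SE) at an adjusted p of 0.159, and was the nuclear member of complex IV whose groups did not overlap. Cox8b, its muscle counterpart, measured 116, 121 and 114 CPM in sham and 120.0, 92.8 and 84.8 CPM in TAC, a log2 fold change of -0.24 ± 0.14 (SE) at an adjusted p of 0.33. TAC replicate 1 was the second highest library for Cox8b and the highest TAC library for Cox8a.

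The subunit 6a pair had values of opposite sign. Cox6a2 measured 1017, 1139 and 1063 CPM in sham and 1129, 926 and 843 CPM in TAC, a log2 fold change of -0.15 ± 0.16 (SE) at an adjusted p of 0.562. Its general counterpart Cox6a1 (chr5:115345642-115348981) measured 82.2, 72.1 and 81.6 CPM in sham and 72.6, 85.6 and 95.8 CPM in TAC, a log2 fold change of 0.11 ± 0.13 (SE) at an adjusted p of 0.634. For Cox6a1 the lowest and the highest libraries of the 6 were sham replicate 2 and TAC replicate 3, and with TAC replicate 3 left out its value was -0.0057. Cox4i1, the main form of the regulatory subunit 4, measured 859.5, 1002 and 902 CPM in sham and 959, 664 and 642 CPM in TAC, a log2 fold change of -0.29 ± 0.19 (SE) at an adjusted p of 0.359. It overlaps 2 annotated protein-coding genes, Emc8 on the opposite strand and Gm20388 on the same strand, and reads from the overlaps may not be told apart. Cox4i2, a form known from lung and from responses to low oxygen, stayed near the bottom of the range at 7.08, 5.04 and 6.33 CPM in sham and 7.78, 4.69 and 6.63 CPM in TAC, a log2 fold change of 0.05 ± 0.23 (SE) at an adjusted p of 0.905. Cox7a2l, which tethers complex III to complex IV in supercomplexes, stood at -0.38 (SE 0.18, adjusted p = 0.222). The other tested nuclear subunits of complex IV (Cox5a, Cox5b, Cox6b1, Cox6b2, Cox6c, Cox7b and Cox7c) lay between -0.26 and 0.04. Without TAC replicate 1, Cox7a1 fell by 0.76 (SE 0.12, adjusted p = 0.00993), the lowest adjusted p among the nuclear members in that edgeR fit, and Cox6a2 did not pass (-0.29, adjusted p = 0.142).

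Ratios between isoforms were tested because a ratio within a library depends little on how libraries are scaled. The ratio of Cox7a2 to Cox7a1, on FPKM plus 0.1, was 0.451, 0.417 and 0.420 in sham and 0.448, 0.559 and 0.504 in TAC, a log2 difference of 0.23 (exact permutation test, two-sided, p = 0.2, adjusted over 6 pairs p = 0.6). TAC replicate 1 fell inside the sham range and the other TAC libraries above it. For Cox6a1 to Cox6a2 the ratio was 0.0963, 0.0754 and 0.0916 in sham and 0.0766, 0.110 and 0.135 in TAC, a log2 difference of 0.26 (exact permutation p = 0.4, adjusted p = 0.6), with the same division of the TAC libraries. Cox4i2 to Cox4i1 differed by 0.34 on the log2 scale (exact permutation p = 0.4, adjusted p = 0.6), at a ratio of 0.00523 to 0.0107 over all libraries. Cox8a to Cox8b, by contrast, differed by -0.05 (exact permutation p = 0.8, adjusted p = 0.96). With 3 samples against 3 the smallest p this test can give is 0.1, so no ratio could pass 0.05.

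**Figure D3:**
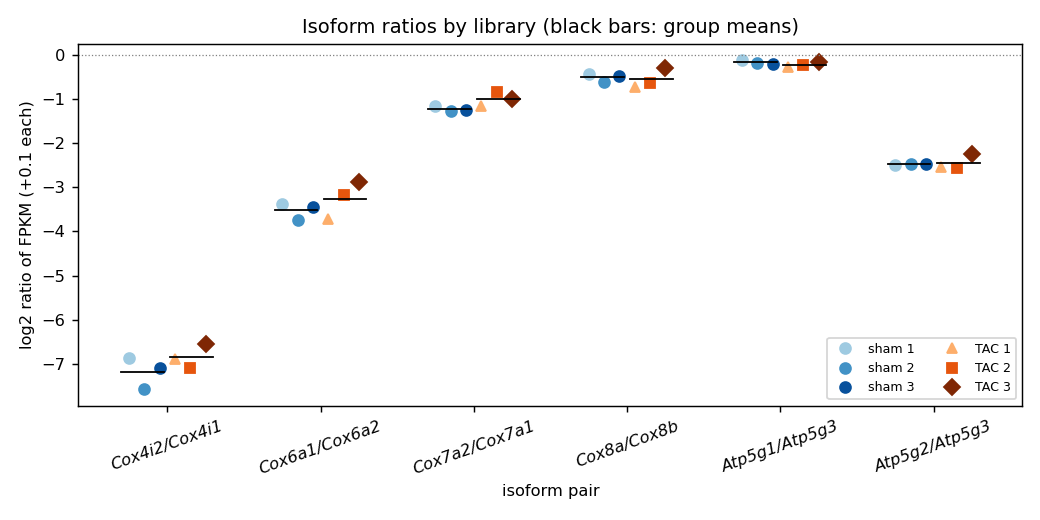
Log2 ratio of FPKM plus 0.1 between the members of 6 isoform pairs (vertical axis) in each library, with black bars for the group means. Sham and TAC values overlap in all 6 pairs, and TAC replicates 2 and 3 lie above the sham libraries for Cox6a1/Cox6a2 and Cox7a2/Cox7a1.

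Every one of the 17 tested nuclear members of complex V had a negative value, with a median of -0.25 and a range of -0.37 to -0.07. Atp5b (chr10:128083273-128090391), the catalytic beta subunit and the most abundant nuclear member per length (2455 ± 131 FPKM in sham), measured 4479, 4864 and 4766 CPM in sham and 4712, 3336 and 3328 CPM in TAC, a log2 fold change of -0.31 ± 0.18 (SE) at an adjusted p of 0.304. TAC replicate 1 lay inside the sham range, and TAC replicates 2 and 3 lay well below the lowest sham library. Atp5a1, the alpha subunit that alternates with beta in the catalytic head, measured 4191, 4431 and 4398 CPM in sham and 4169.7, 3293 and 2722 CPM in TAC, so all TAC values lay below sham, TAC replicate 1 by little. Its log2 fold change was -0.35 (SE 0.18, adjusted p = 0.254). Atp5o, part of the peripheral stalk, measured 915, 895 and 838 CPM in sham and 848, 626 and 576 CPM in TAC, a log2 fold change of -0.37 ± 0.17 (SE) at an adjusted p of 0.222. Atp5d, a subunit of the central stalk, measured 466, 489.7 and 461 CPM in sham and 464, 337 and 334 CPM in TAC, a log2 fold change of -0.32 ± 0.16 (SE) at an adjusted p of 0.254.

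The proton-carrying c ring of complex V is made from Atp5g1, Atp5g2 and Atp5g3, 3 genes whose mature protein is the same. Atp5g3 measured 938, 1034 and 926 CPM in sham and 1011, 768 and 667 CPM in TAC, a log2 fold change of -0.24 ± 0.18 (SE) at an adjusted p of 0.413. Atp5g1 measured 760.1, 804 and 709.9 CPM in sham and 739, 573 and 526 CPM in TAC, a log2 fold change of -0.31 ± 0.16 (SE) at an adjusted p of 0.273, with fractional counts in 2 libraries. Atp5g2 measured 169, 191 and 171 CPM in sham and 176, 133 and 145 CPM in TAC, a log2 fold change of -0.23 ± 0.14 (SE) at an adjusted p of 0.342. All 3 genes had TAC replicate 1 within the sham range and the other TAC libraries below it. Their proportions differed little between groups, at a log2 difference of -0.05 for Atp5g1 to Atp5g3 (exact permutation p = 0.3, adjusted p = 0.6) and of 0.03 for Atp5g2 to Atp5g3 (exact permutation p = 1, adjusted p = 1). At the small end of the complex V values stood Atp5k, Atp5l and Atp5mpl, short membrane subunits, each at -0.07. Without TAC replicate 1, Atp5o fell by 0.57 (adjusted p = 0.0215), Atp5b by 0.51 (adjusted p = 0.0291) and Atp5d by 0.51 (adjusted p = 0.0227) in edgeR.

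Most of the mitochondrially encoded subunits lay higher in TAC. The median log2 fold change of the 6 was 0.44, and none passed the test in edgeR. Here TAC replicate 1 sided with the other TAC libraries, since the median member stood at 0.46, 0.58 and 0.21 in TAC replicates 1, 2 and 3 and at 0.14, -0.01 and -0.17 in sham replicates 1, 2 and 3, relative to the sham mean.

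mt-Atp8 (ENSMUSG00000064356, chrM:7766-7969), a small membrane subunit of ATP synthase, showed the largest difference of all members. It measured 312, 277 and 259 CPM in sham and 403, 588 and 459 CPM in TAC, a log2 fold change of 0.77 ± 0.17 (SE) at an adjusted p of 0.0627. Each TAC library lay above each sham library, TAC replicate 2 highest. In DESeq2 its adjusted p was 0.00108, and in edgeR without TAC replicate 1 it rose by 0.88 (SE 0.16, adjusted p = 0.0129), where 13.2% of all genes were called higher. Leaving out any other library gave 0 mitochondrial calls. mt-Atp6 (chrM:7927-8607), which forms the proton channel of ATP synthase, lies on the same messenger RNA and measured 13889.5, 12377 and 10780.1 CPM in sham and 16720.4, 19523 and 14415 CPM in TAC, a log2 fold change of 0.45 ± 0.18 (SE) at an adjusted p of 0.161. The reading frames of the 2 genes share 43 bases at chrM:7927-7969, or 21.1% of the 204 bases of mt-Atp8, so part of the reads of this short gene can belong to either. The shared stretch is shown here for that reason, from GRCm38, with the start codon of mt-Atp6 and the stop codon of mt-Atp8 in capitals.
mt-Atp8/mt-Atp6: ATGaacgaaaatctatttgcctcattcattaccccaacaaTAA
Per length, mt-Atp6 stood at 13.05 ± 0.521 times the FPKM of mt-Atp8 in sham and 10.6 ± 1.60 times in TAC (SD, n = 3 each), and the ratio of TAC replicate 1, 12.4, came close to the lowest sham ratio. Although mt-Atp8 and mt-Atp6 lie on the same messenger RNA, their levels per length and their log2 fold changes (0.77 and 0.45) differed. The value of mt-Atp8 may thus not be that of the whole messenger RNA, and the reason was not tested.

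mt-Cytb (chrM:14145-15288), the subunit of complex III that oxidises ubiquinol and the single one made in the mitochondrion, measured 18804, 16098 and 14471 CPM in sham and 23465, 24236 and 19968 CPM in TAC, a log2 fold change of 0.45 ± 0.17 (SE) at an adjusted p of 0.14. All TAC libraries lay above all sham libraries, and in DESeq2 the adjusted p was 0.0459. mt-Co2 (chrM:7013-7696), where cytochrome c delivers its electrons to complex IV, measured 18566, 18115 and 14568 CPM in sham and 23723, 25651 and 19353 CPM in TAC, a log2 fold change of 0.42 ± 0.18 (SE) at an adjusted p of 0.181, again with no overlap, though TAC replicate 3 and sham replicate 1 lay close together.

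The remaining core subunits of complex IV did not follow mt-Co2. mt-Co1 (chrM:5328-6872), which holds the site where oxygen is reduced and was the most abundant member at 84797 ± 4239 FPKM in sham, measured 140384, 128263 and 124588 CPM in sham and 135446, 116632 and 102836 CPM in TAC, a log2 fold change of -0.15 ± 0.17 (SE) at an adjusted p of 0.599. TAC replicate 1 lay inside the sham range, TAC replicates 2 and 3 below it. mt-Co3 (chrM:8607-9390), the third core subunit, measured 42706, 46765 and 37844 CPM in sham and 48899, 39257 and 38311 CPM in TAC, a log2 fold change of -0.01 ± 0.17 (SE) at an adjusted p of 0.977, with both groups overlapping. Its sign turned with the setting, to 0.01 with a minimum count of 100. Per length the core genes stood in different proportions in the 2 groups. The FPKM of mt-Co1 was 3.42 ± 0.332 times that of mt-Co2 in sham and 2.30 ± 0.262 times in TAC (SD, n = 3 each), and the 3 TAC ratios, 2.53, 2.01 and 2.35, all lay under the 3 sham ratios, 3.35, 3.13 and 3.79.

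**Figure D4:**
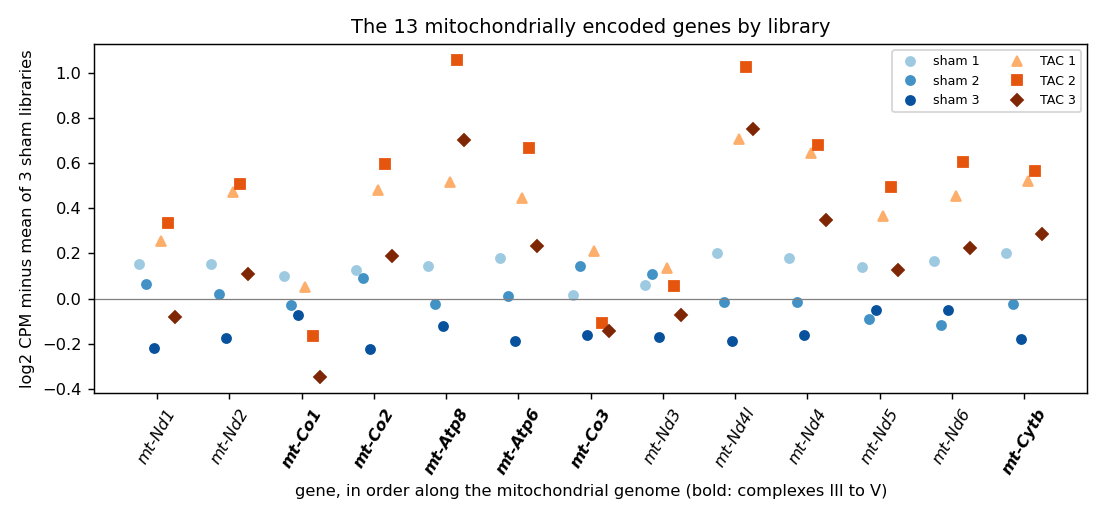
Level of the 13 mitochondrially encoded genes in each library (vertical axis: log2 CPM minus the mean of the 3 sham libraries), in order along the mitochondrial genome, with the 6 subunit genes of complexes III to V in bold. mt-Atp8 and its log2 difference of 1.06 in TAC replicate 2 mark the top of the plot, and mt-Co1, mt-Co3 and mt-Nd3 have the lowest log2 fold changes, -0.15, -0.01 and 0.04.

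Among the other 7 mitochondrially encoded genes, all subunits of complex I, none passed the test in edgeR and all had positive values, with a median of 0.37. mt-Nd4l, a short membrane subunit, came nearest at 0.83 (SE 0.16, adjusted p = 0.0508), and without TAC replicate 1 it rose by 0.87 (adjusted p = 0.0147). In order along the genome the 13 values were 0.17 for mt-Nd1, 0.37 for mt-Nd2, -0.15 for mt-Co1, 0.42 for mt-Co2, 0.77 for mt-Atp8, 0.45 for mt-Atp6, -0.01 for mt-Co3, 0.04 for mt-Nd3, 0.83 for mt-Nd4l, 0.56 for mt-Nd4, 0.33 for mt-Nd5, 0.43 for mt-Nd6 and 0.45 for mt-Cytb. Neighbouring genes could differ, as mt-Atp6 and mt-Co3 or mt-Nd3 and mt-Nd4l did in these values. The 2 shortest genes, mt-Atp8 and mt-Nd4l of 204 and 297 bases, had the highest values, but mt-Nd3, of 348 bases, was among the lowest, and mt-Nd5, the longest at 1824 bases, stood at 0.33. Across the 13 genes, which share the libraries, Spearman's rho between length and log2 fold change was -0.40.

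Within the complexes of mixed origin, the mitochondrial and nuclear parts were set against each other per library as a ratio of summed counts. For complex III the mitochondrial gene held 4.11, 3.38 and 3.25 times the counts of the nuclear members in sham and 5.14, 6.92 and 6.48 times in TAC. For complex V the ratio was 0.875, 0.736 and 0.678 in sham and 1.04, 1.62 and 1.31 in TAC. In both complexes the groups did not overlap, TAC replicate 1 included. For complex IV, whose mitochondrial counts are mostly mt-Co1, the ratio was 32.6 to 36.7 in sham and 35.7 to 40.6 in TAC, and the ranges overlapped. Per length, mt-Cytb stood at 20.3 ± 2.65 times the FPKM of Uqcrq in sham and 31.0 ± 4.25 times in TAC, and mt-Atp6 at 7.42 ± 1.20 times that of Atp5b in sham and 12.9 ± 3.30 times in TAC (SD, n = 3 each). mt-Co1 stood at 54.0 ± 5.96 times the FPKM of Cox6a2 in sham and 54.0 ± 1.32 times in TAC.

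As sums over all 4 complexes, the nuclear members held 28782, 30559 and 28667 CPM in sham and 29597, 22378 and 20394 CPM in TAC, a log2 ratio of -0.28 between group means. The mitochondrial members held 234663, 221896 and 202510 CPM in sham and 248657, 225887 and 195342 CPM in TAC, a log2 ratio of 0.02. For the nuclear sums TAC replicate 1 lay inside the sham range and the other TAC libraries below it, and the mitochondrial sums of the groups overlapped.

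**Figure D5:**
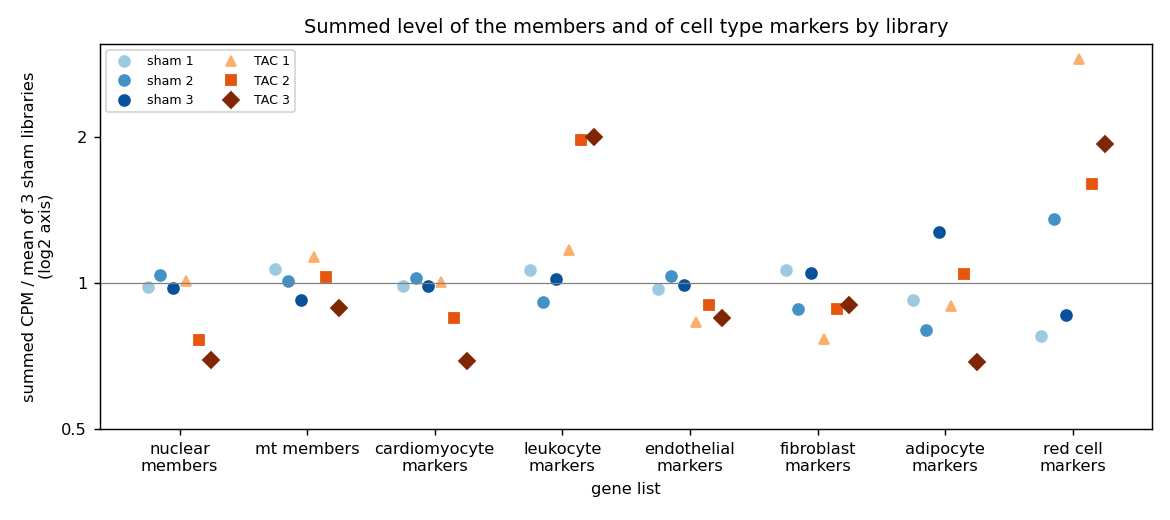
Summed CPM of the nuclear and mitochondrial subunit genes and of 6 cell type marker lists in each library, divided by the mean of the 3 sham libraries (vertical axis, log2 spacing). Nuclear subunits and cardiomyocyte markers are lowest in TAC replicates 2 and 3, where leukocyte markers are highest, and TAC replicate 1 has the highest red cell sum.

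Markers of cardiomyocytes and leukocytes also differed between TAC replicate 1 and the other TAC libraries. For endothelial and fibroblast markers, by contrast, TAC replicate 1 had the lowest sum of the TAC libraries. Relative to the sham mean, the median endothelial marker stood at -0.27, -0.23 and -0.21 in TAC replicates 1, 2 and 3. The median fibroblast marker stood at -0.42, -0.28 and -0.28. The 16 cardiomyocyte markers, none of them mitochondrial, had 0 calls, 10 negative and 6 positive values and a median of -0.19. They ran from -0.50 for Atp2a2, the calcium pump of the sarcoplasmic reticulum, to 0.65 for Csrp3, a protein of the sarcomere's Z-disc. With TAC replicate 1 left out, 5 were called lower and 1, Csrp3, higher. Their sum was 85767 to 88987 CPM in sham, 87317 CPM in TAC replicate 1, 73557 CPM in TAC replicate 2 and 60059 CPM in TAC replicate 3. It rests on a few abundant genes, Myh6 above all. Myh6 measured 19104.5, 19392 and 20273 CPM in sham and 16543, 14267 and 11526 CPM in TAC. The sum thus does not stand for all 16 markers, of which 6 had positive values. Of 14 leukocyte markers 13 were tested, 4 were called higher (Ptprc, Cd68, S100a8 and S100a9) and the median was 1.56. The 7 red cell markers had 6 tested and 2 called higher, with sums of 938 to 1634 CPM in sham and 1926 to 3485 CPM in TAC. Endothelial markers summed to 1963 to 2095 CPM in sham and 1681 to 1823 CPM in TAC, with 1 of 10 called lower (Tie1). The endothelial median was -0.23, with 9 negative values and 1 positive value. Fibroblast markers (0 of 8 called) ranged from 2292 to 2748 CPM in sham and from 1989 to 2332 CPM in TAC, and smooth muscle and pericyte markers (0 of 8) from 1367 to 1615 CPM and from 1018 to 1331 CPM. The fibroblast median was -0.25, with all 8 values negative. That of smooth muscle and pericyte markers was -0.35, with 7 negative and 1 positive. A median near the -0.24 of the nuclear subunits was thus not particular to mitochondrial or cardiomyocyte genes. Adipocyte markers (0 of 7 called) summed to 596 to 946 CPM in sham and 512 to 774 CPM in TAC, mostly from Fabp4. Their median log2 fold change was -0.76, with 5 negative and 2 positive values. Ucp1 measured 126, 24.9 and 101 CPM in sham and 6.60, 40.1 and 1.15 CPM in TAC. Relative to the sham mean, the median adipocyte marker stood at -3.36 on the log2 scale in TAC replicate 3. Skeletal muscle markers summed to 2013 to 2159 CPM in sham and 1764 to 2223 CPM in TAC, almost all from Ckm and Acta1. Myh1, Myh2 and Mylpf of this list lay at 0.611 CPM or less in every library, so the sum describes Ckm and Acta1 alone. Of these 8 markers 3 were tested and 0 called, Acta1 at 1.19, Ckm at -0.64 and Tnni2 at -0.77. Without TAC replicate 1, edgeR called Acta1 higher at 1.51 (adjusted p = 0.0154) and Ckm lower at -0.92 (adjusted p = 0.0167). In that fit Tnnt3, at 0.154 to 0.277 CPM in sham, also passed at 2.61 (adjusted p = 0.013). Myh4, a defining gene of skeletal muscle, was at 0 in all libraries. Apart from Myh4 no marker list had a gene at 0 in all libraries. The part of these differences in the values of the subunits was not tested.

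Other genes of the respiratory pathway were counted from lists by function. Of 37 tested assembly factors of complexes II to V, none passed in edgeR, 27 had negative values and the median was -0.16. The smallest p belonged to Cox19, a copper-handling factor for complex IV, at 0.80 (SE 0.18, adjusted p = 0.0627), a positive value. Without TAC replicate 1, 11 assembly factors were called lower (29.7%, against 10% of all genes in that fit). In the same fit 1 of the 37, Cox19, was called higher at 0.91 (adjusted p = 0.0118), a smaller share than the 13.2% of all genes. Of 17 tested genes listed as electron carriers and ATP synthase regulators, none passed, 16 had negative values and the median was -0.23. That list also held the Coq genes of ubiquinone synthesis, Higd1a and Higd2a, and the subunit genes Ndufa4 and Usmg5. Higd2a, a supercomplex factor, had the smallest p at -0.48 (SE 0.13, adjusted p = 0.0818). Without TAC replicate 1, 7 genes of that list were called lower (41.2%).

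Mitochondrial transcription and RNA handling genes, which make and process the transcripts of the mitochondrial genome, had 23 tested, 0 called, 14 negative and a median of -0.07. Fastk had the smallest p at -0.45 (SE 0.15, adjusted p = 0.114), and 4 genes of that list were called lower without TAC replicate 1 (17.4%, against 10% of all genes). Of the 38 nuclear subunits of complex I, none passed, all 38 had negative values and the median was -0.21. Ndufs8, an iron-sulfur subunit, had the smallest p at -0.45 (SE 0.19, adjusted p = 0.185), and 18 were called lower without TAC replicate 1 (47.4%). Of 14 genes of the tricarboxylic acid cycle, which supplies complex II with succinate, none passed, 13 had negative values and the median was -0.32. Cs, citrate synthase, had the smallest p at -0.47 (SE 0.16, adjusted p = 0.124), and 9 were called lower without TAC replicate 1 (64.3%). Medians of the nuclear subunits of complexes II to V (-0.24) and of complex I (-0.21) were thus close to each other, and that of the transcription and RNA handling list lay nearer to the 0.03 of all tested genes.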

How the data were processed

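RNA of 6 hearts (3 sham, 3 TAC, groups and replicate numbers from the sample titles) was enriched on oligo(dT) beads, prepared with NEBNext Ultra reagents and read on an Illumina NovaSeq, per the labels' protocols. Beads of this kind select by the poly(A) tail, so the level of a mitochondrial transcript here depends on its tail as well as its abundance. That the kit kept strand is not stated, so reads of overlapping genes, 23 of the 55 members among them, cannot be separated. Per the file headers, each gene has an estimated count and an FPKM value in each library of the deposited table. The submitters' processing notes name GRCm38 as the build and, as tools, StringTie 1.3.1, HISAT2, DESeq2 and Bowtie2 2.2.8, without linking a tool to a column. Estimated counts were not whole in 5 members (Uqcrc2, Cox6c, Atp5g1, Atp5f1 and Atp5j), and how such values arose is not stated.

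Symbols and coordinates came from GENCODE annotation of GRCm38, which matched 22255 of 22298 identifiers, and the other 43 held at most 0.00196% of a library's counts. The rounded estimated counts went into edgeR 4.0.16 (R 4.3.3) with filterByExpr at a minimum count of 10, TMM factors and the two-sided quasi-likelihood test, and adjusted p-values are Benjamini-Hochberg over all 13708 genes tested. Standard errors are the log2 fold change divided by the square root of F, an approximation. Isoform ratios of FPKM plus 0.1 were compared with exact two-sided permutation tests. Alternatives were DESeq2 1.42.0 (size factors and Wald test), upper-quartile or total-count scaling, limma-voom and limma-trend (limma 3.58.1), other count filters, an adjusted p under 0.10, the fit without mitochondrial genes, a replicate block, and each library left out. The members, lists, tests and alternatives were chosen with earlier results of these data known. Full statistics are given for mitochondrial members, for the 2 nuclear members of each complex with the smallest p, for the most abundant per length, and for isoforms in the ratios. Of each pathway list, called genes or the gene with the smallest p are named, and others by their role. Names of other genes were chosen after their values were seen. The depth of 19747265 to 27549838 counts per library leaves little counting error for most members. The spread between libraries, which sets the standard errors, cannot be divided into that between hearts and that of preparation.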

Additional observations from a re-analysis of the deposited data

How the results depend on the processing

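Across the alternatives, the median log2 fold change of the nuclear members stayed between -0.42 and -0.18 and that of the mitochondrial members between 0.31 and 0.52. The number of nuclear members called lower was 0 under all scalings, filters and tools tried, and 0 to 24 with 1 library left out, the 24 without TAC replicate 1. The mitochondrial members called higher numbered 2 with the DESeq2 Wald test, 1 at an adjusted p under 0.10, and 0 to 1 with 1 library left out. Of all tested genes, the DESeq2 Wald test called 7.81% higher and 4.36% lower. An adjusted p under 0.10 in edgeR called 11.7% of all tested genes, higher or lower. The other pathway genes came from lists of 37, 17, 23, 7, 14 and 38 tested genes. None of them was called in the edgeR fit of all 6 libraries at 0.05. The DESeq2 Wald test called 3 higher and 5 lower, an adjusted p under 0.10 gave 3 higher and 2 lower, and total-count scaling and a minimum count of 100 gave 1 higher each. With 1 library left out, 0 to 2 were higher and 0 to 49 lower, the highest of both without TAC replicate 1. Over all genes, leaving out TAC replicate 1 gave 1837 calls higher and 1392 lower, against 20 and 16 without TAC replicate 2, 82 and 52 without TAC replicate 3, and 4 to 7 higher and 8 to 10 lower without a sham replicate. The causes were not tested.

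The sign turned for mt-Co3 (0.0076 with a minimum count of 100, and -0.14 to 0.0445 with 1 library left out), Cox4i2 (-0.13 to 0.20), Cox6a1 (-0.0057 to 0.19), the Cox8a/Cox8b ratio (-0.19 to 0.0393) and the Atp5g2/Atp5g3 ratio (-0.0779 to 0.0867), the last 4 with 1 library left out. With 1 library left out, the sign also turned for the log2 ratios of 2 mitochondrial sums. These were complex IV (-0.16 to 0.0315) and all mitochondrial members (-0.0609 to 0.11). Same-numbered sham and TAC libraries did not vary together (correlations of 0.011, -0.111 and -0.0245). With so few libraries these values show no pairing by number but cannot exclude it. With the replicate block edgeR called 0 nuclear and 0 mitochondrial members, and 48 genes higher and 26 lower overall. Depth does not limit the abundant members, but Cox4i2 and Cox6b2, at a few CPM, have wide errors.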
